A study of Homo sapiens with 6 samples.

Results

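Transcripts of 10 intermediate filament genes were compared between U87MG and T98G, a pair of established human glioblastoma cell lines. The genes were the keratins KRT7, KRT8, KRT18, KRT19 and KRT5, the cytoplasmic filament genes VIM, NES and DES, and the nuclear lamin genes LMNA and LMNB1. All probe sets to which the platform annotation assigns 1 of these symbols alone were taken, without regard to their values, which gave 15 probe sets for 10 genes, out of 22215 probe sets for 11963 named genes. A further probe set lists DES with a second gene and was not used. The 10 genes, unlike their probe sets, were chosen with earlier results of these data known.

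The data were 6 Affymetrix arrays of total RNA, 3 of U87MG and 3 of T98G. Both lines were grown in the same serum-containing medium and the labels name no treatment. Per the labels, U87MG resists the apoptosis that the proteasome inhibitor bortezomib and the isopeptidase inhibitor G5 cause, but undergoes necrosis with G5. T98G is described as sensitive to apoptosis by both compounds and partly resistant to that necrosis. Each group is a single cell line, and nothing in the labels states that replicates came from separate cultures, so the p-values concern these lines alone and measure the spread between arrays.

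Intermediate filaments are rope-like polymers that give cells and nuclei their mechanical strength. Keratins form only from pairs of a type I chain, such as keratin 18 or 19, and a type II chain, such as keratin 5, 7 or 8, and they mark epithelia. Vimentin (VIM) and desmin (DES) can polymerise alone, nestin (NES) joins other chains such as vimentin, and lamins line the inner face of the nuclear envelope. Astrocytes and gliomas are best known for vimentin, nestin and the glial filament protein GFAP.

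Values are log2 expression per probe set, and differences are U87MG minus T98G, with standard errors (SE) from limma. A probe set was called when its Benjamini-Hochberg adjusted p over all 22215 probe sets was under 0.05 and its difference was at least 2-fold. Across probe sets, Pearson's r was 0.991 to 0.997 within a line and 0.934 to 0.938 between lines. U87MG replicate 3 stood apart in its poly-A labelling controls, with a mean of 5.30 against 6.10 to 6.84 on the other 5 arrays. The highest value of control probe sets for a bacterial trp gene was 4.03, which serves as a reference level for dim signal. Some probe sets lay under it, so it is not the lowest value. As no detection calls were used, a value above it does not by itself show that a gene is expressed.

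KRT18 fell steeply in U87MG, KRT7 and LMNB1 were lower by smaller amounts, NES was higher, and the other 6 genes were not called. Of the 15 probe sets, 1 was higher and 3 were lower in U87MG and 11 were neither. Over all probe sets, 12.3% were called in either direction (5.93% higher and 6.33% lower). As the genes were chosen with earlier results of these data known, these shares do not test whether the family differs more than others. The arrays of the lines did not overlap for 8 of the 15, 3 higher and 5 lower, where 49.1% of all probe sets did not overlap. Without the fold minimum, 3 were higher and 3 lower at an adjusted p under 0.05, beside 37.6% of all probe sets in either direction. Of the 3 higher, VIM (limma adjusted p = 0.0497) and 1 LMNA probe set (0.0434) had adjusted p = 0.0905 and 0.0776 with the replicate number as a block. Both also missed 0.05 when any array but U87MG replicate 3 was left out. They stayed under 0.05 after repeated centring (limma adjusted p = 0.0362 and 0.029) or quantile normalization (0.0285 and 0.018). The same held with a variance trend with intensity (0.00185 and 0.032) and with dim probe sets left out (0.0352 and 0.031). The third was NES. The median difference was -0.07 over the 15 probe sets and -0.01 over all probe sets. In cultures measured in bulk, fewer cells with a transcript and less transcript per cell cannot be told apart.

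**Figure D1:**
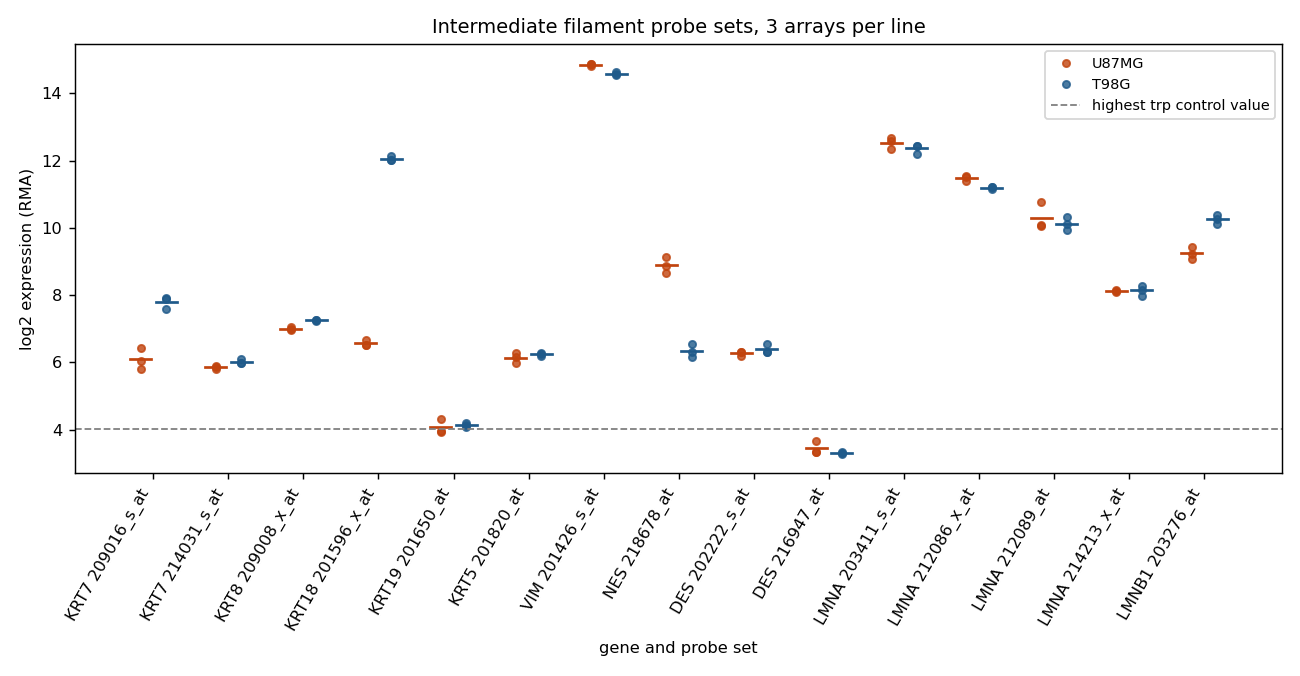
Log2 expression (vertical axis) of the 15 intermediate filament probe sets (horizontal axis), with 1 point per array, U87MG left of T98G, and bars at the mean of 3 arrays. KRT18 separates the lines most, at a mean of 6.57 in U87MG and 12.05 in T98G, and the dashed line marks 4.03, the highest trp control value.

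KRT18, the type I chain of simple epithelial keratin filaments, had values of 6.51, 6.67 and 6.52 on the U87MG arrays, against 12.01, 12.12 and 12.01 on the T98G arrays. No array of either line came near the other line. The mean was 6.57 ± 0.09 in U87MG and 12.05 ± 0.06 in T98G (SD, n = 3 arrays each), a 44.7-fold lower level in U87MG (log2 -5.48, SE 0.10, limma adjusted p = 5.47e-09). It was number 30 of the 22215 probe sets, counted from the most negative difference. The gene is represented by 1 probe set of a class whose probes can match other transcripts, so near-identical KRT18 copies could share this signal.

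KRT8, the type II partner of keratin 18, had 6.95, 6.99 and 7.05 in U87MG, against 7.26, 7.24 and 7.25 in T98G. The groups did not overlap, but the difference was small and was not called (log2 -0.25, 95% interval -0.46 to -0.04, limma adjusted p = 0.0606). Without U87MG replicate 3 the adjusted p was 0.0412 at log2 -0.28, still far short of 2-fold. The KRT8 probe set, like that of KRT18, is of a class whose probes can match other transcripts. Its means in both lines lay under 7.63, the limit used here for dim signal. How much of this signal comes from KRT8 itself was not tested. Within arrays, the KRT18 value minus the KRT8 value was -0.43 ± 0.11 in U87MG and 4.80 ± 0.07 in T98G (SD, n = 3). The values come from different probe sets, so this quantity does not give the ratio of transcript amounts. It was chosen after the values were seen and is given as a description, with no test.

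KRT7, a type II keratin of ducts and glands, was lower in U87MG on its brighter probe set. It had 6.42, 5.81 and 6.05 in U87MG, against 7.59, 7.91 and 7.87 in T98G. Its mean was 6.09 ± 0.31 in U87MG and 7.79 ± 0.18 in T98G, or 3.24-fold lower in U87MG (log2 -1.70, SE 0.17, limma adjusted p = 5.28e-05). The other KRT7 probe set had the same direction and no overlap between lines, at 5.86 ± 0.06 in U87MG and 6.02 ± 0.07 in T98G, but was not called (log2 -0.16, adjusted p = 0.244). With the mean of its 2 probe sets, KRT7 was short of 2-fold and its call was lost (log2 -0.93, limma adjusted p = 9.31e-05). Both KRT7 probe sets are of a class that can match more than 1 transcript.

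The remaining keratins showed no called difference. KRT19, the smallest type I keratin, had 3.96, 4.32 and 3.94 in U87MG and 4.10, 4.21 and 4.13 in T98G. These values lie at the level of the trp controls, with 2 of the U87MG arrays under 4.03, so no fold is given. KRT5, the type II keratin of basal epidermal cells, had 6.14 ± 0.15 in U87MG and 6.24 ± 0.04 in T98G (log2 -0.09, interval -0.34 to 0.15), with overlapping arrays.

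**Figure D2:**
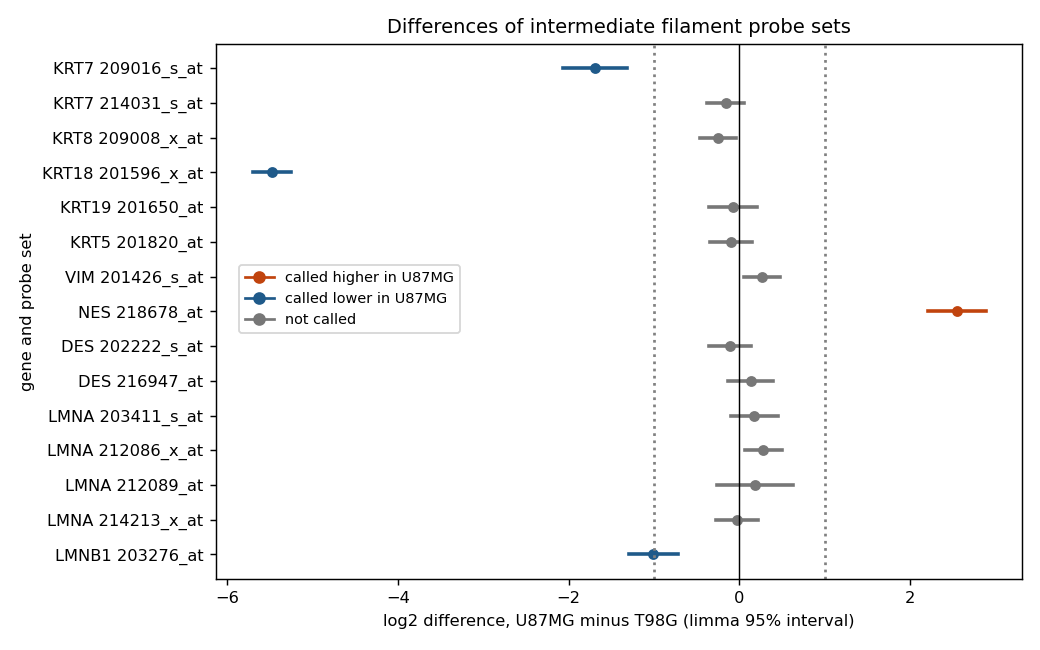
Log2 difference, U87MG minus T98G, of each of the 15 probe sets (points) with the 95% limma interval (lines), where dotted lines mark 2-fold. KRT18 and the brighter KRT7 probe set lie beyond 2-fold on the lower side with their intervals and NES on the higher side, while the LMNB1 interval (-1.29 to -0.72) crosses the dotted line.

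The genes KRT7, KRT5, KRT8 and KRT18 lie in a cluster of keratin genes on chromosome 12 (gene order from RefSeq, GRCh38.p14). Between KRT7 and KRT18, both included, 13 genes were measured, all of them keratins, of which 2 were lower, 0 higher and 11 neither in the fit with 1 probe set a gene. In that fit 13.6% of all named genes were called, 7.01% of them all as lower. KRT18 and KRT7 were the 2 lower genes and lie at opposite ends of this run. The measured neighbours of KRT18, KRT8 on one side and the translation initiation factor gene EIF4B on the other, had differences of -0.25 and -0.02. TNS2, a focal adhesion protein gene next beyond EIF4B, had log2 -0.82, with 8.07 ± 0.13 in U87MG and 8.88 ± 0.20 in T98G, which is short of 2-fold. Beyond TNS2, IGFBP6 had log2 0.54, SOAT2 0.00 and CSAD -0.93, and none of these was called. TNS2, IGFBP6 and CSAD did not overlap between lines and had limma adjusted p = 6.13e-04, 0.00160 and 5.25e-04, so only the fold minimum left them uncalled. On the KRT7 side, ACVR1B had log2 -0.52 (limma adjusted p = 0.00388, no overlap) and OR7E47P -0.42 (0.0408, with overlap). ACVRL1, NR4A1 and ATG101 had -0.03, -0.06 and -0.08. These neighbours were picked after the KRT18 value was seen.

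**Figure D3:**
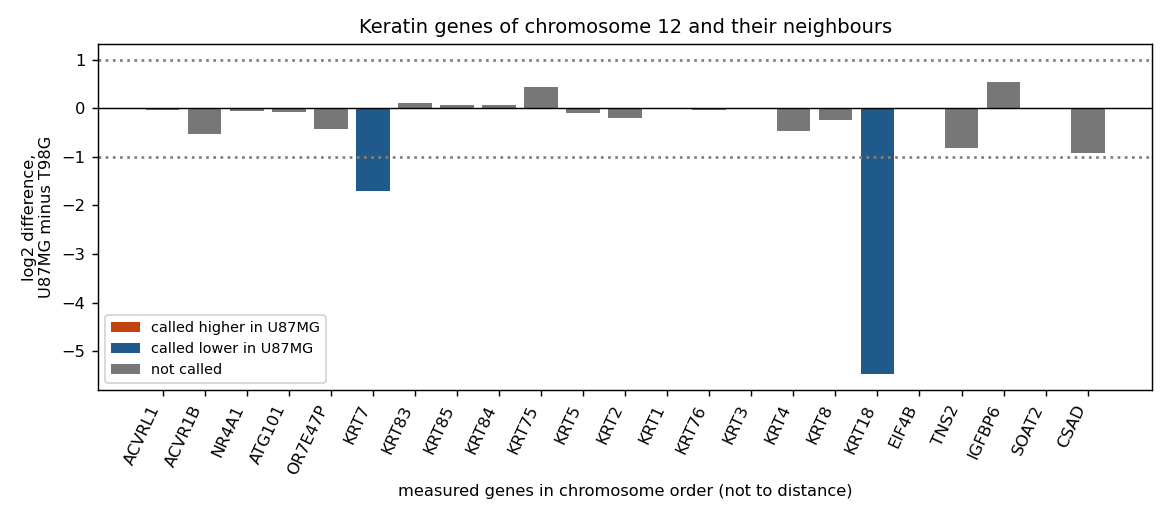
Log2 difference, U87MG minus T98G (bars), of the measured genes from KRT7 to KRT18 and 5 on each side, in chromosome 12 order and not to distance. Only KRT7 (-1.70) and KRT18 (-5.48) pass the 2-fold lines with a call, and the keratins between them range around 0.

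Beyond these 5 keratins, 27 other keratin genes were measured, 18 of type I and 9 of type II. Of the type I genes 1 was higher, 0 lower and 17 neither (median log2 0.13, against -0.01 over all genes). KRT33B, a hair keratin, was 3.40-fold higher in U87MG, at 7.08 ± 0.27 against 5.31 ± 0.21 in T98G (limma adjusted p = 1.50e-05). Limma called 0 of the 9 type II genes (median log2 -0.00), and 1 had an adjusted p under 0.05 without reaching 2-fold. That gene was KRT4 at log2 -0.46 (adjusted p = 0.0103), followed by KRT75 at 0.43 (0.0539). Over all named genes 13.6% were called in this fit (6.56% higher, 7.01% lower), which is the share to set beside each list here and below. The 10 filament genes themselves had 1 higher and 3 lower of 10, with a median of -0.10.

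Markers of simple epithelium, where keratins 8 and 18 are the usual pair, were set beside the keratins. Of 19 measured genes 0 were higher, 1 lower and 18 neither (median log2 -0.04). The average level per array was 5.89 to 5.94 in U87MG and 6.04 to 6.18 in T98G. This average includes the 1 called gene, with its wide difference, and so does not show a shift of the whole list. CD24, a surface glycoprotein, was the lower gene, at 7.83 ± 0.41 in U87MG and 11.54 ± 0.29 in T98G (log2 -3.71, limma adjusted p = 5.96e-07), and all 6 of its probe sets were called lower. All of them are of a class whose probes can match other transcripts. CDH1, which encodes E-cadherin, had 4.47 ± 0.19 in U87MG and 4.44 ± 0.07 in T98G, and GRHL2, an epithelial transcription factor gene, 4.09 ± 0.07 in U87MG and 4.14 ± 0.32 in T98G. EPCAM, an epithelial adhesion molecule, had 5.25 ± 0.32 in U87MG and 4.35 ± 0.16 in T98G, short of 2-fold and opposite in direction to KRT18 (log2 0.89, limma adjusted p = 0.00161). Without U87MG replicate 3 it passed 2-fold (log2 1.05, adjusted p = 4.68e-04). The part of epithelial genes in the KRT18 difference was not tested.

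VIM, the vimentin gene and the principal filament gene of mesenchymal and glial tumour cells, was near the top of the scale in both lines. Its values were 14.89, 14.87 and 14.80 in U87MG, against 14.54, 14.64 and 14.58 in T98G, without overlap. The difference of log2 0.27 (SE 0.09, interval 0.06 to 0.48) had a limma adjusted p of 0.0497 and was far from 2-fold. The highest value in the data was 14.93, and whether the top of the scale limits this difference was not tested.

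DES, the desmin gene of muscle, was not called on either probe set. The brighter one had 6.28 ± 0.07 in U87MG and 6.39 ± 0.14 in T98G (log2 -0.11, interval -0.35 to 0.14). On all 6 arrays the other was under the highest trp control value, at 3.34 to 3.66 in U87MG and 3.28 to 3.34 in T98G. Of 24 muscle genes 1 was higher, 1 lower and 22 neither (median log2 0.08). The average muscle level per array was 6.03 to 6.17 in U87MG and 5.89 to 5.95 in T98G. This average includes the called genes and does not show a shift of the whole list. ACTA2, smooth muscle actin, was 8.38-fold higher in U87MG (11.11 ± 0.29 against 8.05 ± 0.26), although its other probe set had log2 0.04. The lower gene, TAGLN, encodes an actin-binding protein and had overlapping arrays, at 7.09 ± 0.19 in U87MG and 8.21 ± 0.81 in T98G, and its call was lost by limma's treat and when U87MG replicate 1 or 3 or T98G replicate 2 or 3 was left out (smallest change log2 -0.82). The skeletal muscle regulator genes MYOD1 and MYOG differed by 0.20 and 0.17 and were not called.

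NES, the nestin gene of neural progenitors, was the only one of the 10 genes called higher. It had 8.66, 8.87 and 9.13 in U87MG, against 6.30, 6.16 and 6.55 in T98G, so the lowest U87MG array stood over 2 units above the highest T98G array. It averaged 8.89 ± 0.24 in U87MG and 6.34 ± 0.20 in T98G, or 5.85-fold higher in U87MG (log2 2.55, SE 0.15, limma adjusted p = 2.03e-06). Its probe set is specific by its identifier class and was retained when multiply matching probe sets were removed, with the same difference.

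The promoter of NES and the windows at both listed starts of LMNB1 are printed because these are the called genes with an entry in the RefSeq promoter table (GRCh38.p14), which matched 6 of the 10 genes. Each window runs 5′ to 3′ on the gene's strand, from 250 bases before to 50 bases after a start, and capitals mark the GC box GGGCGG found on either strand. The NES window is chr1:156677358-156677657 on the minus strand, and the LMNB1 windows are chr5:126776373-126776672 and chr5:126776886-126777185 on the plus strand.
NES: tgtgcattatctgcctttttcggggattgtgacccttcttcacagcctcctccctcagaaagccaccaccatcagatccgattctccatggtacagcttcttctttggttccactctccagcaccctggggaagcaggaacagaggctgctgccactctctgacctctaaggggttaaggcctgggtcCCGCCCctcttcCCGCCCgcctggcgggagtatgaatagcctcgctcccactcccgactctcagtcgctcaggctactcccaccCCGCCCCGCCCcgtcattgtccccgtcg
LMNB1, upstream start: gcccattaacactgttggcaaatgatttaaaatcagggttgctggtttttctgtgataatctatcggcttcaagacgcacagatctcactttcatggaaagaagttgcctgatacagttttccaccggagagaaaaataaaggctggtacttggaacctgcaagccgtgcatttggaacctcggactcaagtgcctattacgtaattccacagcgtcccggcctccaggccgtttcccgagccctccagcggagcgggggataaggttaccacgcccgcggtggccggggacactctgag
LMNB1, downstream start: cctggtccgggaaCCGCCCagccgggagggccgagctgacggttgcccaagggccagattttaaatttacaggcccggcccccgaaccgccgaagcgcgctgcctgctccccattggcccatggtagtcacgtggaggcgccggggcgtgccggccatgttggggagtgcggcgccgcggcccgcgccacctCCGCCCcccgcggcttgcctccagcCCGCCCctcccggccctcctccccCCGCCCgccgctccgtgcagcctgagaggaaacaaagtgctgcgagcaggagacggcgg
The NES window holds 4 GC boxes, of which 2 overlap by 1 base, the upstream LMNB1 window 0 and the downstream one 4. A GC box occurs in 45.0% of the 35116 windows in the table. None of these 3 windows holds the TATA box TATAAA (11.5% of windows) or the AP-1 motif TGANTCA (7.71%), searched on both strands, and the downstream LMNB1 window holds 1 CCAAT box (CCAAT, 34.6% of windows). GC content is 60.3% for NES, and 52.0% and 73.7% for the LMNB1 windows in that order, where the median window has 58.7%. A motif match is a description of these letters and shows no binding.

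Glial and neural progenitor markers were set beside NES, which is itself on this list. Of 18 measured genes 3 were higher, 1 lower and 14 neither (median log2 0.08). The average level was 6.56 to 6.64 per U87MG array and 6.25 to 6.32 per T98G array. NES and the other called genes are part of this average, which does not show a shift of the whole list. Besides NES, PAX6, a neural progenitor transcription factor gene, was 7.16-fold higher (9.42 ± 0.12 in U87MG against 6.58 ± 0.23 in T98G). SLC1A3, an astrocyte glutamate transporter gene, was 2.05-fold higher (log2 1.04, SE 0.11, limma adjusted p = 6.23e-05), a call lost without T98G replicate 2 (log2 0.94). SOX9, a glial transcription factor gene, was 3.98-fold lower (8.44 ± 0.24 in U87MG against 10.43 ± 0.13 in T98G). Some markers of this list were at or near the trp controls in both lines. PROM1 and PTPRZ1 lay under 4.03 on all 6 arrays, and S100B had 4.23 ± 0.08 in U87MG and 4.13 ± 0.16 in T98G. Others lay well above them, such as GJA1, with 12.64 ± 0.23 in U87MG and 12.25 ± 0.14 in T98G. Its log2 0.39 was not called (limma adjusted p = 0.0441). BCAN had 7.95 ± 0.12 in U87MG and 8.03 ± 0.02 in T98G.

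GFAP and the neurofilament genes, the filament genes usually set beside nestin in neural cells, showed no called difference. GFAP had 6.52 ± 0.04 in U87MG and 6.42 ± 0.04 in T98G (log2 0.09), and its 2 probe sets ran from -0.09 to 0.09. NEFL, NEFM and NEFH, the neurofilament chains, had log2 0.15, 0.31 and 0.05, and 5 of the 6 NEFL arrays lay under 4.03. INA, the neuronal filament alpha-internexin, had log2 -0.12, and PRPH, which encodes peripherin of peripheral neurons, 0.02.

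Of 11 other cytoplasmic and lens filament genes 1 was higher, 2 lower and 8 neither (median log2 0.05). SYNM, which encodes synemin, a large chain that joins vimentin and desmin filaments, was 2.37-fold lower, at 5.99 ± 0.12 in U87MG against 7.23 ± 0.19 in T98G (limma adjusted p = 3.39e-05). BFSP1, the lens filament protein filensin, was 2.30-fold lower (5.78 ± 0.37 in U87MG against 6.99 ± 0.34 in T98G), and this call was lost without U87MG replicate 2 (log2 -0.99). SYNC, or syncoilin, which binds desmin in muscle, was 2.03-fold higher (9.59 ± 0.33 against 8.57 ± 0.29), just past the minimum. The SYNC call was lost when any of U87MG replicates 1 and 2 or T98G replicates 1 and 3 was left out (lowest log2 0.91). The other 2 genes of this list were BFSP2 at -0.02 and IFFO1 at 0.22.

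**Figure D4:**
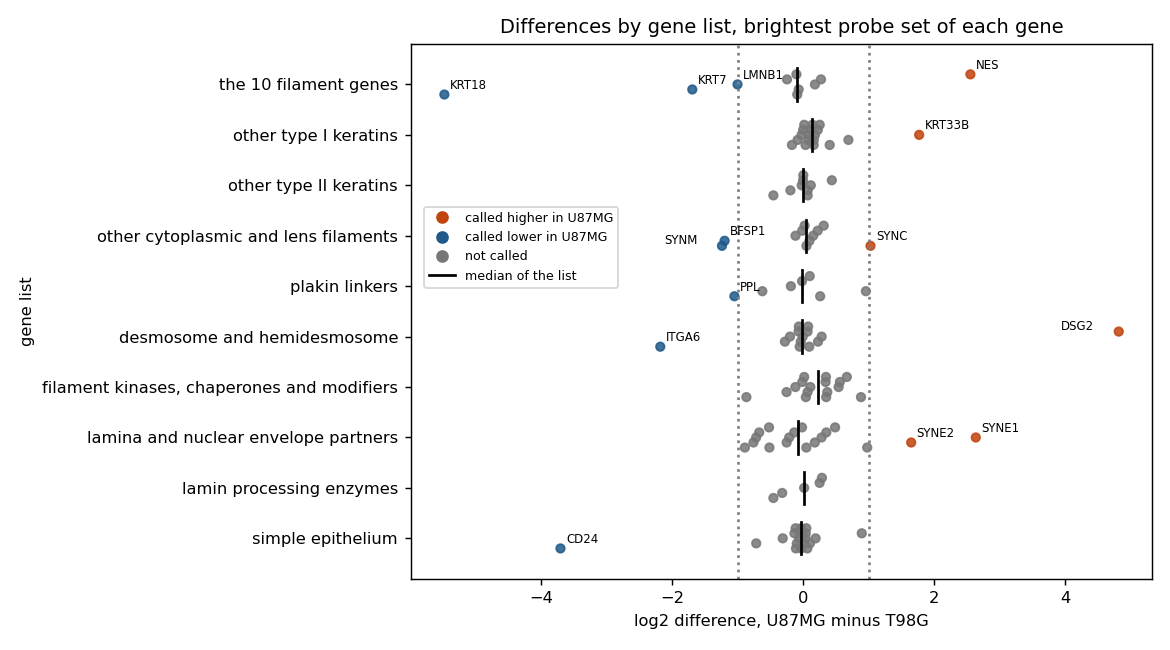
Log2 difference, U87MG minus T98G (horizontal axis), of every measured gene in each list drawn (rows), 1 point per gene at its brightest probe set, with a black bar at the list's median and dotted lines at 2-fold. The lists for muscle, for glia and neural progenitors, and for leukocytes and endothelium are not drawn. The medians lie between -0.10 and 0.22, and the called genes are labelled.

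Lamins differed by gene. LMNA, which encodes lamins A and C, had 4 probe sets with differences of -0.02 to 0.28 and no call. The brightest had 12.67, 12.58 and 12.36 in U87MG, against 12.21, 12.43 and 12.44 in T98G, with overlap (log2 0.18, interval -0.10 to 0.45). A second, at 11.48 ± 0.07 in U87MG and 11.20 ± 0.04 in T98G, did not overlap and had a limma adjusted p of 0.0434, at log2 0.28. The third had log2 0.19, which rested on U87MG replicate 3 (10.76, against 10.06 and 10.10 on the other U87MG arrays) and became -0.04 without it.

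LMNB1, which encodes lamin B1, a permanently farnesylated lamin, was lower in U87MG, at 9.24, 9.44 and 9.06, against 10.12, 10.38 and 10.26 in T98G. The groups did not overlap, and the means were 9.25 ± 0.19 in U87MG and 10.25 ± 0.13 in T98G (log2 -1.01, SE 0.13, limma adjusted p = 2.65e-04). This 2.01-fold difference sits at the fold minimum. Its call was lost without U87MG replicate 3 (log2 -0.91) or T98G replicate 2 (-0.94) and after repeated centring (-0.99) or quantile normalization (-0.98), while its adjusted p stayed at or under 0.00177 in these 4 settings.

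LMNB2, the gene of the related lamin B2, had the opposite direction, at 11.15 ± 0.15 in U87MG and 10.17 ± 0.15 in T98G. Its log2 0.97 (SE 0.12, limma adjusted p = 1.47e-04) fell just short of 2-fold, and it passed without U87MG replicate 1 or T98G replicate 2 and after quantile normalization. The LMNB1 value minus the LMNB2 value within arrays was -1.90 ± 0.25 in U87MG and 0.08 ± 0.07 in T98G (SD, n = 3), with no test. It too compares different probe sets and does not give the ratio of transcript amounts. LMNB2 and this quantity were singled out after the values were seen.

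Among 18 genes of the lamina and nuclear envelope 2 were higher, 0 lower and 16 neither (median log2 -0.08). Without the fold minimum 5 were higher and 6 lower at a limma adjusted p under 0.05, in the fit with 1 probe set a gene. The share over all genes was not counted in that fit. In the separate fit over probe sets it was 37.6% of all probe sets in either direction. Among the 6, picked after values were seen, were NUP153, a nuclear pore gene, at log2 -0.89 and LBR, the lamin B receptor gene, at log2 -0.76. Both higher genes encode nesprins, which tie the nuclear envelope to the cytoskeleton. SYNE1 was 6.20-fold higher, at 8.09 ± 0.23 in U87MG and 5.46 ± 0.12 in T98G (limma adjusted p = 3.02e-07), but its other probe set had log2 0.25. SYNE2 was 3.13-fold higher (8.47 ± 0.14 against 6.83 ± 0.36). Limma called 0 of the 5 measured lamin processing genes (median log2 0.01), and 1 had an adjusted p under 0.05. That gene was ICMT, which methylates the farnesylated end of lamins, at log2 -0.46 (adjusted p = 0.00450) on the brightest of 3 probe sets that ran up to 0.12. FNTA, a subunit of farnesyltransferase, had log2 0.25 (adjusted p = 0.0757).

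Linker and junction genes for keratin and vimentin filaments held a few wide differences. Of 7 plakin genes, 0 were higher and 1 was lower (median log2 -0.02). PPL, or periplakin, had 5.22 ± 0.33 in U87MG and 6.28 ± 0.21 in T98G, 2.08-fold lower, a call lost without U87MG replicate 2 (log2 -0.94), U87MG replicate 3 or T98G replicate 3. DSP, which encodes desmoplakin, the anchor of keratins at desmosomes, had 3.80 ± 0.06 in U87MG and 3.99 ± 0.27 in T98G, with 5 of 6 arrays under 4.03. Among 14 desmosome and hemidesmosome genes, 1 was higher and 1 lower (median log2 -0.03). DSG2, a desmosomal cadherin, was 28.1-fold higher in U87MG (9.50 ± 0.19 against 4.69 ± 0.14, limma adjusted p = 6.45e-09). ITGA6, the integrin alpha chain of hemidesmosomes, was 4.55-fold lower (7.85 ± 0.34 against 10.04 ± 0.14).

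Limma called 0 of 16 kinases, chaperones and other modifiers of filaments, with 8 at an adjusted p under 0.05, 7 higher and 1 lower (median log2 0.22). In the fit over probe sets, 37.6% of all probe sets had an adjusted p under 0.05. ROCK1, a kinase that phosphorylates vimentin and other filaments, had log2 0.88, and HSPB1, a small heat shock protein that binds filaments, had -0.87. Markers of leukocytes and endothelium had 2 higher, 0 lower and 7 neither of 9, with an average level of 5.93 to 6.17 per U87MG array and 5.54 to 5.64 per T98G array. KDR, a VEGF receptor gene, was 9.61-fold higher in U87MG (8.29 ± 0.25 against 5.03 ± 0.08). CSF1R, a macrophage receptor gene, was 2.02-fold higher, a call lost when U87MG replicate 2 or 3 or T98G replicate 1 or 3 was left out (lowest log2 0.96). The leukocyte marker PTPRC had 4.55 ± 0.36 in U87MG and 4.33 ± 0.12 in T98G, and the endothelial marker CDH5 3.95 ± 0.10 in U87MG and 4.03 ± 0.10 in T98G.

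**Figure D5:**
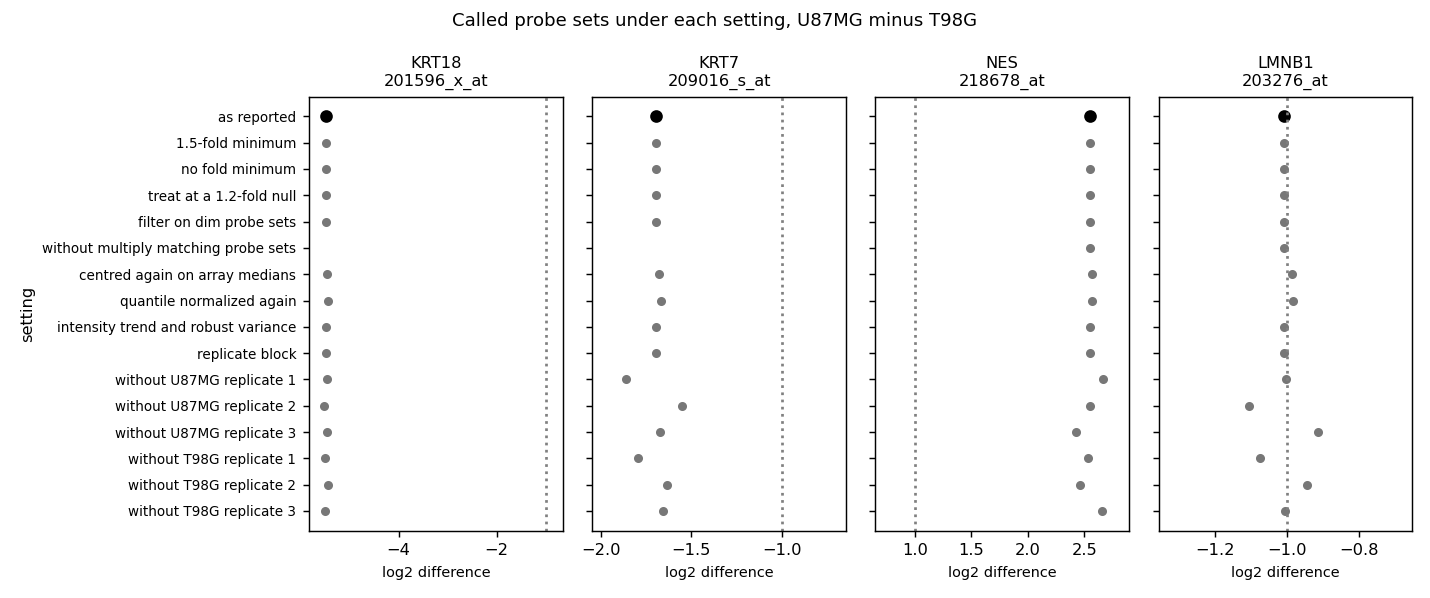
Log2 difference, U87MG minus T98G, of the 4 called probe sets, each taken singly (panels, each with its own horizontal scale) under every setting that gave a value (rows), with dotted lines at 2-fold. KRT18 (-5.53 to -5.44), KRT7 (-1.86 to -1.55) and NES (2.43 to 2.66) stay beyond the line in each setting that has a value, while LMNB1 (-1.10 to -0.91) lies on either side of it.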

How the data were processed

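Per the labels' protocols, biotin-labelled total RNA was used on Affymetrix arrays. The deposited values are log2 expression for each probe set, and the submitters' processing notes name RMA and limma without versions. RMA equalises arrays, so a difference in total RNA would not show. The number of arrays limits precision (median residual SD 0.149). No detection calls were used.

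The platform annotation of 2016 gave gene names, with current symbols from RefSeq (GRCh38.p14, 19052 of 19064 single-gene probe sets matched). The 62 controls were left out. The two-sided test of limma 3.58.1 under R 4.3.3 (lmFit, then eBayes) was run over 22215 probe sets and, for the lists, over 11963 genes at their brightest probe set, with adjusted p under 0.05 and 2-fold as the call. Tested on simulated data for U87MG against T98G over 22215 probe sets, 94 of 100 shifts of log2 1.5 were recovered. At log2 3, 100 of 100 were recovered, with 0 false calls at either size. No shift nearer the 2-fold minimum was simulated, so calls close to it, such as that of LMNB1, were not examined.

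Members and lists were chosen with earlier results of these data known. Named genes were all members, the other cytoplasmic filament genes, all called keratins, and per list up to 4 called genes per direction without overlap or, with none, the 2 with the smallest p. Genes outside that rule were added after values were seen. They were marker genes without a call, TAGLN, LMNB2, NUP153, LBR, TNS2, EIF4B, IGFBP6, SOAT2, CSAD, ACVR1B, OR7E47P, ACVRL1, NR4A1 and ATG101. Alternatives were other fold minimums, limma's treat (1.2-fold null), leaving out probe sets with means under 7.63 in both lines, removal of multiply matching probe sets (identifiers ending in _x_at, _s_at or _a_at), renewed centring or quantile normalization, a variance trend with intensity, the replicate block, averaging over a gene's probe sets and omission of each array.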

Additional observations from a re-analysis of the deposited data

How the results depend on the processing

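Calls of KRT18 and NES held under every alternative that gave them a value. The brighter KRT7 probe set kept its call in each setting fitted to single probe sets, but with a gene's probe sets averaged KRT7 lost it (log2 -0.93) and 3 of the 10 genes were called. The removal of multiply matching probe sets left KRT18, KRT7, KRT8 and VIM without a value. It also gave no value for CD24, EPCAM, PAX6, SOX9, SYNC, SYNE2, TAGLN and LMNB2. The filter on dim probe sets left 9 of the 15, without KRT8, KRT19, KRT5 and DES, and gave no value for KRT33B, SYNM, BFSP1, PPL and CSF1R. The removal of multiply matching ones left 6 of the 15 probe sets, with 2 called in place of 4 (likewise 2 in place of 4 genes), and 1389 called over all probe sets in place of 2723. Over all probe sets, 5455 were called at 1.5-fold, 8345 with no fold minimum and 5070 by limma's treat. Over the 167 listed genes, 33, 46 and 32 were called under these 3 settings, in place of 18, and 12 without multiply matching probe sets. With each array left out in turn, 3 to 4 of the 15 probe sets were called. The LMNA differences that changed sign were never called. The LMNA probe set at -0.02 had 0.0021 after quantile normalization and -0.108 to 0.049 with arrays left out, and the one at 0.19 had -0.044 to 0.31 with arrays left out.

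Same-numbered arrays of the lines correlated at 0.153, 0.0763 and 0.0813 in their deviations, so the numbers were not taken as pairs, although all 6 arrays matched their own number best, as a hint from the data. With the replicate block, 2729 probe sets and 4 of the 15 were called, and 18 listed genes. Without a fold minimum, VIM and 1 LMNA probe set missed an adjusted p of 0.05 under the block (0.0905 and 0.0776) and in 5 of the 6 fits that left out an array. Both stayed under 0.05 after repeated centring or quantile normalization, with the variance trend and with the filter on dim probe sets. The brightness of VIM, and values near the trp controls for KRT19 and 1 DES probe set, limit what these arrays can show.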
